A study of Homo sapiens with 9 samples.

Results

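The locus described here is a stretch of the long arm of human chromosome 18 that runs from RPRD1A to TPGS2 and holds MOCOS and ELP2. Its 6 genes, RPRD1A, SLC39A6, ELP2, MOCOS, FHOD3 and TPGS2, were listed by position, out of 58336 genes in the deposited table. They were selected on their ratios to control: the inner genes had been seen to be far lower in both PCIF1 knockout clones than in control cells, and the flanking genes not. Those ratios are therefore given as a description, and no test was made on them. Precision run-on sequencing (PRO-seq), which maps RNA polymerases engaged in transcription by the nascent RNA they extend, had been run on MEL624 cells, an established line from human melanoma. There were 9 libraries, 3 biological replicates in each of 3 groups: PCIF1 KO clone 1, PCIF1 KO clone 2, and control MEL624 cells of wild-type PCIF1 that carried a random sgRNA. PCIF1 is the enzyme that methylates an adenosine next to the mRNA cap. Each knockout group is 1 clone, and all 3 groups share the parental line.

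The table holds 1 mean per group and no value per library, so neither an error nor a p-value could be computed, and no difference below was set against the spread between replicates. Levels are mean normalized counts per gene, that is the deposited value per kb multiplied by the deposited gene length in kb. That length is near the merged exon length of most of these genes, and whether reads in introns were counted is not given in the sources used here, so levels per kb are comparable between genes only within that limit. Ratios are log2((clone + 1)/(control + 1)), which understates ratios where counts are low. A gene was compared if its counts averaged 10 or more across the 3 groups, as 17149 did. All 6 genes of the locus passed that floor. The control mean is shared by both comparisons, so a control value that is high by chance would make both clones low together. A lower value in bulk cells does not tell fewer transcribing cells from fewer polymerases per cell. The number of DNA copies was not measured in these libraries, and its part was not tested. With 1 clone per knockout group, a trait of a clone cannot be told from loss of PCIF1.

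PCIF1 itself had 269.6 counts in clone 1, 239.3 in clone 2 and 239.5 in control, which does not check the labels, since a small edit need not alter nascent transcription. Of 7 melanocyte lineage markers, 2 (MITF and PMEL) reached 10 counts in every group and 5 were under 10 in every group, with TYR listed at 0 throughout. The normalized counts of all genes summed to 3759168 in clone 1, 3823178 in clone 2 and 3760730 in control. The summed level of the 7 markers was 171.2 counts in clone 1, 296.1 in clone 2 and 221.0 in control, most of it MITF, with 142.0 counts in clone 1, 259.2 in clone 2 and 168.5 in control. PMEL had 21.3 counts in clone 1 and 23.8 in clone 2, against 48.4 in control. Of 5 markers of other cell types, COL1A1 alone reached 10 counts in every group. Their part in the results below was not tested.

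The genes of this stretch do different work. MOCOS encodes the sulfurase that adds a sulfur atom to the molybdenum cofactor, which xanthine dehydrogenase and aldehyde oxidase need. ELP2 encodes a WD40-repeat subunit of Elongator, the complex that modifies the wobble uridine of certain transfer RNAs. SLC39A6 encodes a zinc importer of the plasma membrane, also called ZIP6 or LIV-1. On the flanks, RPRD1A binds the phosphorylated C-terminal domain of RNA polymerase II, FHOD3 is a formin that assembles actin filaments, and TPGS2 is a subunit of the tubulin polyglutamylase complex.

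In GRCh38, the interval extended over 844.8 kb of chromosome 18, from 35984387 to 36829216. RPRD1A (ENSG00000141425, minus strand) lies at 35984387 to 36067576. SLC39A6 (ENSG00000141424, minus strand) lies at 36108531 to 36129385 and ELP2 (ENSG00000134759, plus strand) at 36129444 to 36180557, with their 5′ ends facing each other across 58 bases. MOCOS (ENSG00000075643, plus strand) lies at 36187497 to 36272157, 6939 bases beyond the end of ELP2. FHOD3 (ENSG00000134775, plus strand) lies at 36297713 to 36780220 and TPGS2 (ENSG00000134779, minus strand) at 36777647 to 36829216, and the spans of these last genes overlap by 2574 bases at their 3′ ends. GENCODE places a second divergent pair at MOCOS: the long noncoding RNA COSMOC (minus strand, 36179996 to 36187475) ends 21 bases before MOCOS begins.

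**Figure D1:**
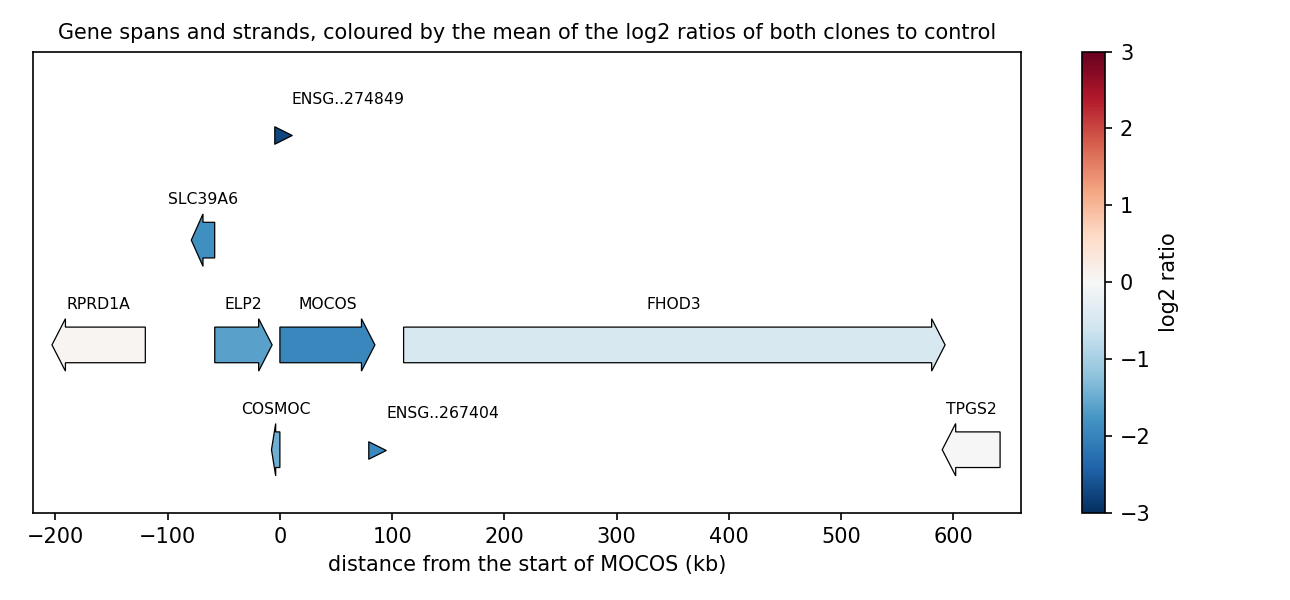
Gene spans of the interval against distance from the start of MOCOS in kb; arrows point in the direction of transcription, triangles mark genes too short to draw to scale, and colour gives the mean of the log2 ratios of clone 1 and clone 2 to control. SLC39A6, ELP2, COSMOC, MOCOS and the short ENSG00000274849 and ENSG00000267404 are in the darker blues, FHOD3 is pale and RPRD1A and TPGS2 are near white.

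The start regions of the 3 lower genes and of the flanking RPRD1A are printed below because the lower genes begin from separate CpG-rich starts, SLC39A6 and ELP2 from starts that face each other. The sequences are from RefSeq (GRCh38.p14), 5′ to 3′ on the strand of the gene, and hold the 250 bases before the annotated start and, as the last letter, the start base itself. The windows are chr18:36129340-36129590 (minus strand) for SLC39A6, chr18:36129649-36129899 (plus) for ELP2, chr18:36187247-36187497 (plus) for MOCOS and chr18:36067559-36067809 (minus) for RPRD1A. Capitals mark matches, on either strand, to the 9 motifs searched: the GC box GGGCGG, the NRF1-type motif GCGCATGC, the ETS-type motif CGGAAG, the CCAAT box, the CRE with letters TGACGTCA, the TATA box read as TATAAA, the E-box read as CACGTG, the M-box core with letters CATGTG and the YY1-type motif GCCATCTTG.
SLC39A6: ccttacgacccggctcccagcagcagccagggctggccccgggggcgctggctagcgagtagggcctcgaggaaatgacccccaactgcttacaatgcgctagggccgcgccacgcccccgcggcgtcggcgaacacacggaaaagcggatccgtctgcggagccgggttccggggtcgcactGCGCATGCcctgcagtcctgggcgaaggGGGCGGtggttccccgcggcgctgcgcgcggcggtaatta
ELP2: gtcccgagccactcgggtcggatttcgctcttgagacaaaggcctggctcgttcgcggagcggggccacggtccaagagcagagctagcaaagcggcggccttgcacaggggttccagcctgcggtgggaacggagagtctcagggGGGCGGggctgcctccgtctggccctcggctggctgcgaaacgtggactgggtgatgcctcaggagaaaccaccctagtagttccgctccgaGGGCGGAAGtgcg
MOCOS: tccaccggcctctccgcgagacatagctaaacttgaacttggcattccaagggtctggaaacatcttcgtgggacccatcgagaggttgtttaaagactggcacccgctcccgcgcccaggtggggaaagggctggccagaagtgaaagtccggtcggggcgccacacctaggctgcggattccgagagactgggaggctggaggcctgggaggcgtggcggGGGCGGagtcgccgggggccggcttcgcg
RPRD1A: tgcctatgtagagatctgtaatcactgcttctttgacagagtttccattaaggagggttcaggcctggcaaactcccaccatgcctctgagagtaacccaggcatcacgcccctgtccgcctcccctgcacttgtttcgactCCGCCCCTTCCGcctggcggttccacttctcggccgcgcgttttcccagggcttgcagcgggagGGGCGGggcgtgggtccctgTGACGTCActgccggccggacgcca

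All 6 genes matched an entry of the RefSeq promoter table. The RefSeq starts of SLC39A6 and ELP2 lie inside the longer GENCODE spans, 559 bases apart on opposite strands, so their printed windows cover most of the stretch between them. The windows held 32 CpG in SLC39A6, 22 in ELP2 and 21 in MOCOS, against 17 in RPRD1A, 35 in FHOD3 and 33 in TPGS2 and a median of 11 over 35116 promoters. The lower genes were therefore not set apart from all of their neighbours in CpG number. A GC box was found in each of the 6 windows and in 42.7% of all promoters. An NRF1-type match was found in SLC39A6 (2.63% of all promoters) and an ETS-type match in ELP2, where it overlaps a GC box, and in RPRD1A (16.6%). The CRE match was in RPRD1A (1.73%), and the YY1-type match was in TPGS2 (0.609%), which also held a CCAAT match (32%). None of the 6 windows held a TATA box (10.8% of all promoters), an E-box (6.37%) or an M-box core (9.46%). No motif was found in all 3 lower genes apart from the GC box. Because PCIF1 acts on transcripts that begin with A, the annotated start base was read: it was A in SLC39A6 and RPRD1A and G in ELP2, MOCOS, FHOD3 and TPGS2, with A at 44.4% of all annotated starts. These starts are annotated positions, not starts measured in these cells.

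Of the 6 genes, 3 were at least 2-fold lower than control in clone 1 and the same 3 in clone 2, and 0 were at least 2-fold higher. Over all compared genes, 1.32% were at least 2-fold lower in clone 1, 1.9% were in clone 2 and 0.589% were in both; since these values chose the locus, nothing is read from that contrast. MOCOS had 96.5 counts in clone 1 and 114.7 in clone 2, against 411.0 in control. That leaves 23.5% of the control level in clone 1 (log2 ratio -2.08) and 27.9% in clone 2 (-1.83). Among the 17149 compared genes, MOCOS had the 54th lowest ratio in clone 1 and the 62nd lowest in clone 2. Per kb of gene length, the control level of MOCOS was 65.43, above 78.0% of compared genes, whereas its levels of 15.36 in clone 1 and 18.26 in clone 2 were above 27.2% and 32.3% of them. MOCOS was thus among the more strongly transcribed genes in control and among the weaker ones in both clones.

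ELP2 had 213.2 counts in clone 1 and 228.2 in clone 2, against 678.9 in control, the highest count of the 6 genes in control. These are 31.4% and 33.6% of the control level, log2 ratios of -1.67 and -1.57. Per kb, ELP2 stood at 19.26 in clone 1, 20.62 in clone 2 and 61.34 in control, so that in control it was transcribed at nearly the level of MOCOS. With the pseudocount of 1, the clone 2 ratio of ELP2 was the nearest to the 2-fold limit among the 3 lower genes. On the other side of the limit, the nearest gene was FHOD3 in clone 1, at -0.88.

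SLC39A6 had 19.1 counts in clone 1 and 24.1 in clone 2, against 79.6 in control. It stood at 24% of the control level in clone 1 (log2 ratio -2.00) and at 30.3% in clone 2 (-1.68). Its level per kb was the lowest of the 3 lower genes in every group, at 5.19 in clone 1, 6.55 in clone 2 and 21.61 in control. SLC39A6 was thus lower than ELP2 per kb in each group although their 5′ ends face each other. Its ratios to control were also lower with the pseudocount of 1. With a pseudocount of 5, the order in clone 2 was the other way, at -1.54 for SLC39A6 and -1.55 for ELP2.

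The flanking genes had values near control, with 1 exception. RPRD1A had 149.7 counts in clone 1 and 165.6 in clone 2, against 151.3 in control, log2 ratios of -0.02 and 0.13. TPGS2 had 385.6 counts in clone 1 and 317.0 in clone 2, against 347.2 in control, log2 ratios of 0.15 and -0.13. FHOD3, the longest gene of the interval, had 32.5 counts in clone 1 and 56.1 in clone 2, against 60.9 in control. In clone 1 it was at 53.4% of control (log2 ratio -0.88) and in clone 2 at 92.1% (-0.12). FHOD3 is thus the gene for which the clones gave unlike values, and it adjoins the lower genes. The exons of FHOD3 and TPGS2 share 741 bases on opposite strands in GENCODE; whether reads were counted by strand is not given in the sources used here, so reads of one may enter the value of the other.

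**Figure D2:**
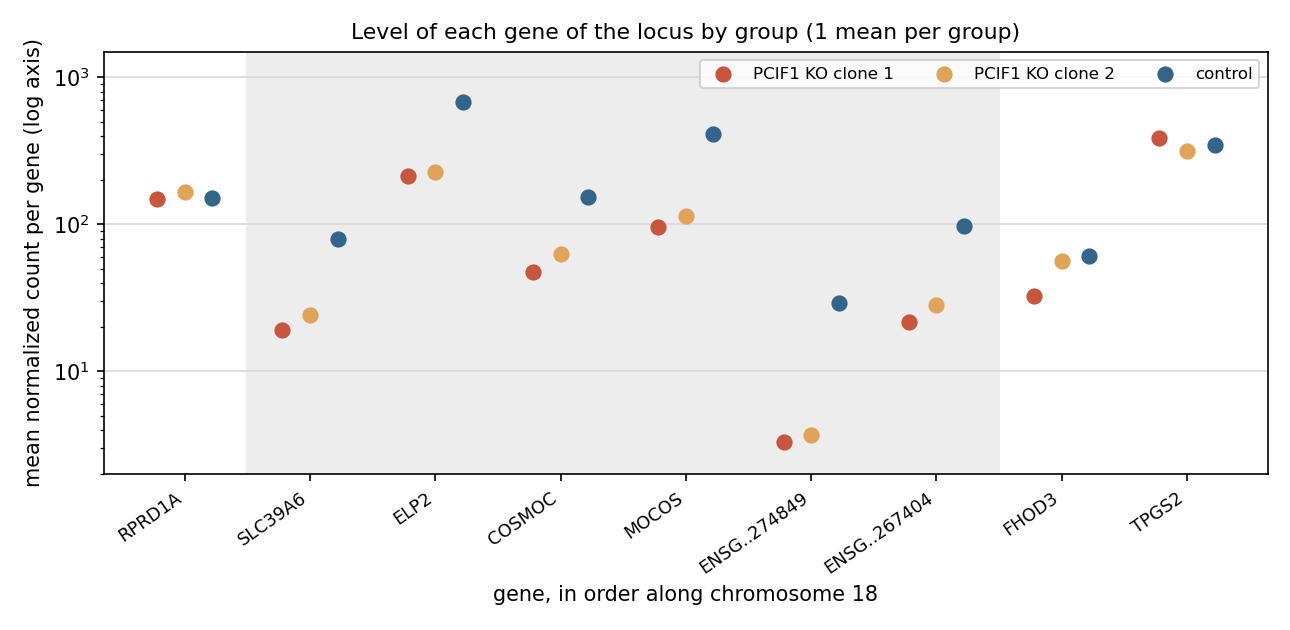
Mean normalized count per gene (log axis) in clone 1, clone 2 and control for the genes of the interval that reached the floor, in order along chromosome 18; each point is the authors' mean of 3 libraries, and shading marks the lower genes. From SLC39A6 to ENSG00000267404 both clones sit below control, while for RPRD1A and TPGS2 the 3 points lie close together.

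Besides the 6 genes, the table lists 5 other genes that overlap the interval, and 3 of them lie among the lower ones. They were not among the genes listed for the locus, but they overlap or adjoin them and are no independent evidence. COSMOC, transcribed away from MOCOS, had 47.6 counts in clone 1 and 62.9 in clone 2, against 152.7 in control, which is 31.2% and 41.2% of control and gives log2 ratios of -1.66 and -1.27. ENSG00000274849, a noncoding gene on the plus strand that begins 2327 bases inside MOCOS, had 3.3 counts in clone 1 and 3.7 in clone 2, against 29.2 in control. Its log2 ratios of -2.81 and -2.68 rest on few counts, and it passed the floor through its control value. ENSG00000267404, a processed pseudogene on the plus strand that begins 1416 bases past the end of MOCOS, had 21.8 counts in clone 1 and 28.4 in clone 2, against 98.2 in control (log2 ratios -2.12 and -1.75). Reads of a processed pseudogene may be split with its parent gene, and COSMOC shares 395 exon bases with ELP2 on the opposite strand, so these values are uncertain in that respect. ENSG00000267456, with 0 counts in both clones and 0.37 in control, was too low to compare, and KIAA1328 belongs to the flank beyond TPGS2.

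With these genes counted, the lower stretch was an unbroken run of 6 compared genes, SLC39A6, ELP2, COSMOC, MOCOS, ENSG00000274849 and ENSG00000267404, and it was the same run in each clone. It measured 166.1 kb, from 36108531 to 36274599. The gap from RPRD1A to the run was 41.0 kb and that from the run to FHOD3 was 23.1 kb, and RPRD1A was near control in both clones. FHOD3 was near control in clone 2 alone: at a limit of 1.5-fold the run had 7 genes in clone 1, with FHOD3, and 6 in clone 2. Genes of the run had log2 ratios from -2.81 to -1.66 in clone 1 and from -2.68 to -1.27 in clone 2, with medians of -2.04 and -1.72, whereas the median over all compared genes was -0.00 in each clone. Over the whole genome, compared genes at least 2-fold lower formed 210 runs in clone 1, of which 202 were single genes and 3 had 3 or more genes. In clone 2 there were 296 such runs, of which 276 were single genes and 3 had 3 or more. The MOCOS run of 6 was the longest in each clone, which describes the ratios that chose it. With a floor of 50 counts, or with protein-coding genes only, it had 3 genes in each clone. The next longest had 4 genes, and 1 of that length, from SNX19P3 to LINC01444, was also on chromosome 18 in both clones. Clone 2 had another of 4 genes, from FKBP1A to SIRPA on chromosome 20. The remaining run of 3 genes in clone 1, from GAREM1 to DTNA, was on chromosome 18 as well. The MOCOS run holds 6 of the 101 compared genes that were at least 2-fold lower in both clones, or 5.94% of them. Genes of the run overlap or adjoin each other and are not independent counts.

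The genes were selected for low values in both clones, so likeness of the clones within the run is no finding. None of its 6 genes was 2-fold apart between the clones, where 1.98% of all compared genes were, and nothing is read from so few genes. All 6 had a higher level in clone 2 than in clone 1, with log2 ratios of clone 2 to clone 1 from 0.10 in ELP2 to 0.40 in COSMOC and 0.25 in MOCOS. For comparison, genes were classed by their mean count over the 3 groups, control included. Among compared genes of 200 to 1000 counts, the class of MOCOS and ELP2, the central 95% of that ratio ran from -0.35 to 0.53. It ran from -0.50 to 0.63 for 50 to 200 counts, the class of COSMOC, and from -1.01 to 1.05 for 10 to 50 counts, the class of SLC39A6 and of both short genes. Each of the 6 ratios lay inside the range of its class. By the clones alone, MOCOS (96.5 and 114.7 counts) would stand in the class of 50 to 200 counts. ENSG00000274849 (3.3 and 3.7) would stand under every class. FHOD3, at 0.77, lay inside the range of the lowest class, but its mean of 49.8 counts is at the edge of that class. Its ratio was above the 0.63 that bounds the class of 50 to 200 counts, so its place depends on that edge. These ranges may hold lasting differences between the clones and are not a replicate error.

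To see where the lower values end, 20 compared genes on each side were examined, from 32091295 to 46920160. Their median log2 ratio was 0.12 in clone 1 and -0.13 in clone 2. The 20 genes before RPRD1A had medians of -0.17 (clone 1) and -0.15 (clone 2), and the 20 after TPGS2 had 0.20 (clone 1) and -0.02 (clone 2). Of the 40 genes, 33 in clone 1 (82.5%) and 27 in clone 2 (67.5%) lay within 1.5-fold of control, smaller shares than the 88.1% and 83% of all compared genes. The nearest gene before RPRD1A, C18orf21, had 23.7 counts in clone 1 and 28.2 in clone 2, against 19.3 in control. The nearest after TPGS2, KIAA1328, had 104.1 counts in clone 1 and 109.6 in clone 2, against 92.0 in control. Neither was low in a clone.

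Farther out, the 5 nearest genes before RPRD1A included 1 that was at least 2-fold lower in both clones, the short microRNA gene MIR3929, with 7.3 counts in clone 1 and 4.4 in clone 2, against 24.4 in control. It is separated from the run by C18orf21 and RPRD1A, both near control. GALNT1, whose enzyme begins mucin-type O-glycans, had 73.5 counts in clone 1 and 80.9 in clone 2, against 68.3 in control. The noncoding ENSG00000266965 had log2 ratios of -0.09 and -0.76, and ENSG00000267397 had -0.26 and -0.05. After KIAA1328, the noncoding MIR924HG, LINC01901 and KC6 and the unclassified ENSG00000279034 had log2 ratios from -0.13 to 0.49 in clone 1 and from -0.71 to 0.15 in clone 2.

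Of the 40 flanking genes, 4 had levels 2-fold or more under control in clone 1 and 4 in clone 2, or 10% in each, against 1.32% and 1.9% of all compared genes. Apart from MIR3929 they were chosen here after their values were seen. They were GAREM1 in both clones, NOL4 and DTNA in clone 1, and ST8SIA5 and its divergent transcript ST8SIA5-DT in clone 2. DTNA, which encodes a dystrophin-associated protein, had 12.3 counts in clone 1 and 51.0 in clone 2, against 64.3 in control. ZNF396 was at least 2-fold higher in both clones, with 22.4 counts in clone 1 and 15.3 in clone 2, against 3.3 in control, and SIGLEC15 in clone 1 alone (log2 ratio 1.30, and -0.60 in clone 2). GAREM1, NOL4 and DTNA are consecutive compared genes in clone 1 and ST8SIA5 and ST8SIA5-DT in clone 2, and none of these adjoins the MOCOS run. MIR3929 reached the floor only through its control value, ZNF396 only through the clones and SIGLEC15 only through clone 1. ST8SIA5-DT, with 1.0 counts in clone 2, reached it only through clone 1 and control. The large ratios of these genes thus follow in part from that filter.

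**Figure D3:**
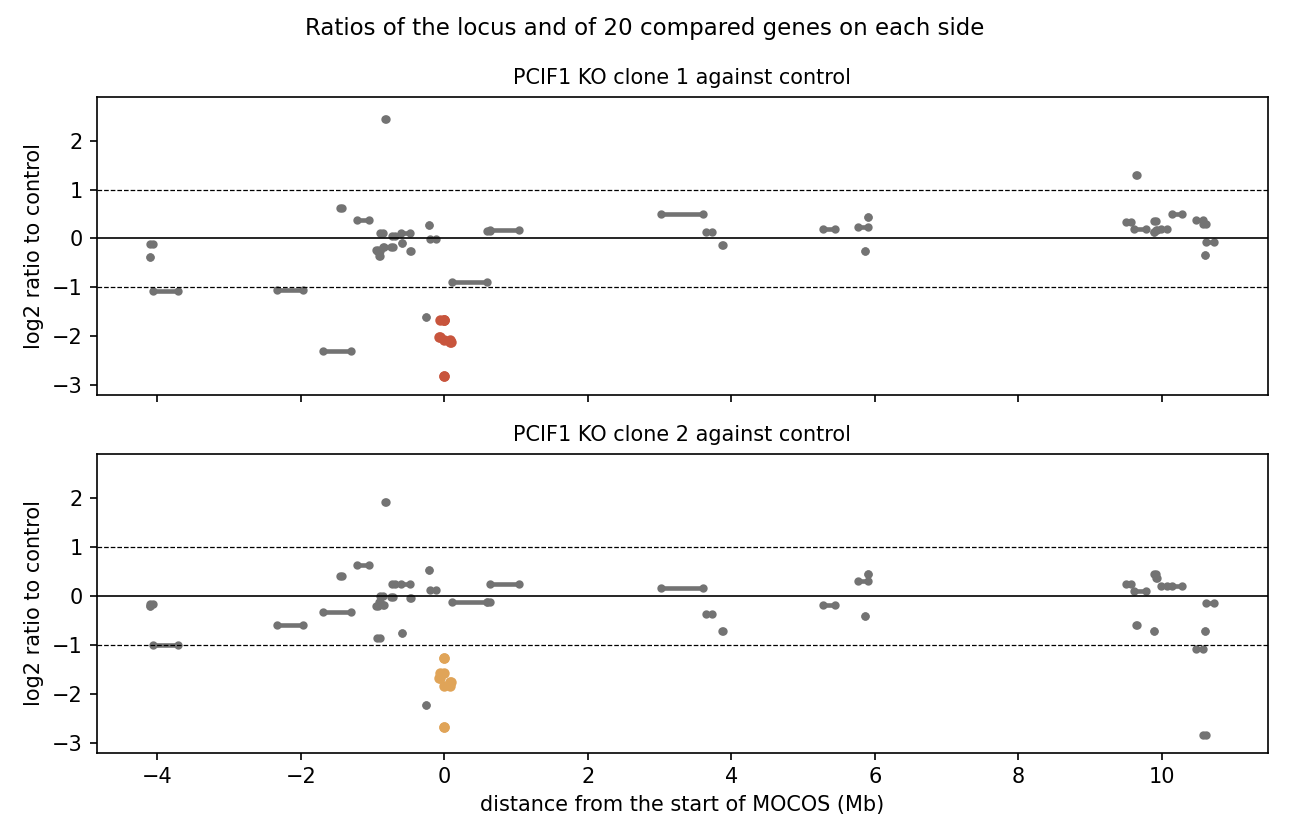
Log2 ratio to control of clone 1 and of clone 2 against distance from the start of MOCOS in Mb, for the genes of the interval and 20 compared genes on each side; each bar is a gene span, coloured where a gene of the interval was at least 2-fold lower, and dashed lines mark 2-fold. The coloured run lies between -2.81 and -1.27, while 82.5% of the 40 flanking genes in clone 1 and 67.5% in clone 2 lie within 1.5-fold of control, against 88.1% and 83% of all compared genes. Flanking genes are grey at any ratio, and 10% of them in each clone were at least 2-fold lower, against 1.32% and 1.9% of all compared genes. Among them, ST8SIA5-DT in clone 2, at -2.85, lies below the run.

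The short arm of the same chromosome was also lower in the clones. The 93 compared genes of the short arm had median log2 ratios of -0.51 in clone 1 and -0.60 in clone 2, whereas the 218 of the long arm, to which the MOCOS run belongs, had medians of 0.00 and -0.05. Of the 311 compared genes of chromosome 18, 16 were at least 2-fold lower in both clones, against 101 of 17149 (0.589%) over all. Of the 16 on chromosome 18, 6 were those of the run, whose ratios chose the locus, and 7 were among the 93 of the short arm.

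The genes with the pattern most like that of MOCOS were sought among the 11917 genes whose counts averaged 50 or more, by distance in the plane of the log2 ratios of clone 1 and clone 2. The likeness thus rests on 3 group means. The nearest was the noncoding ENSG00000266401 on the short arm of chromosome 18, at a distance of 0.25, with 193.5 counts in clone 1 and 208.7 in clone 2, against 700.3 in control. It was followed by the F-box gene FBXL7 (0.48), ELP2 (0.49), LINC00668 (0.53), also on the short arm of chromosome 18, and the muscarinic receptor gene CHRM3 (0.65). The nearest to ELP2 were CHRM3 (0.24), ENSG00000266401 (0.25), the kynureninase gene KYNU (0.26), FBXL7 (0.29) and COSMOC (0.30). SLC39A6 was under the floor of 50 and could not appear. MOCOS and ELP2 therefore had near neighbours on chromosomes 1, 2 and 5 as well as on chromosome 18. CHRM3 (32.1 counts in clone 1, 41.1 in clone 2 and 104.8 in control) passed the floor of 50 only through control. So did FBXL7 (37.3, 31.2 and 115.5). The search thus favours genes high in control and uses the ratios that chose the locus, so nothing is read from these neighbours.

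The partners of each gene elsewhere in the genome were examined to see whether their levels also differed. Lists were drawn up by function and do not hold the 6 genes of the locus. MOCS3 and NFS1 stand in both the molybdenum cofactor list and the Elongator list. Over all compared genes, 2.27% were at least 2-fold higher in clone 1 and 3.34% in clone 2, beside the shares for lower genes given above, so that 3.59% were 2-fold off in either direction in clone 1, 5.23% in clone 2 and 6.54% in at least 1 clone.

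Of 10 genes of the molybdenum cofactor pathway, 8 were compared, and 0 were at least 2-fold off in either clone. Their median log2 ratio was 0.04 in clone 1 and -0.09 in clone 2. GPHN, which encodes gephyrin, the protein that inserts molybdenum, had 200.8 counts in clone 1 and 235.5 in clone 2, against 153.1 in control. MOCS1, for the first step of cofactor synthesis, had log2 ratios of 0.10 and 0.36, and SUOX, the sulfite oxidase gene, had -0.23 and -0.20. The genes of the enzymes that depend on MOCOS, chosen after their values were seen, had unlike values in the clones: XDH, the xanthine dehydrogenase gene, had 98.1 counts in clone 1 and 67.1 in clone 2, against 77.3 in control. AOX1, the aldehyde oxidase gene, had 73.8 counts in clone 1 and 43.3 in clone 2, against 58.4 in control.

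All 16 listed genes of Elongator and of wobble uridine modification were compared, and 0 were at least 2-fold off. Their medians were 0.04 in clone 1 and 0.13 in clone 2. ELP3, the catalytic subunit of Elongator, had 461.2 counts in clone 1 and 539.9 in clone 2, against 365.0 in control. The subunit genes ELP4, ELP5 and ELP6 had log2 ratios from -0.12 to 0.14 in clone 1 and from 0.10 to 0.21 in clone 2. ELP2 was thus far under control while ELP3, ELP4, ELP5 and ELP6 were not. CTU1 and CTU2, whose products add sulfur to the same wobble uridine, had log2 ratios of 0.45 and 0.76 for CTU1 and of -0.31 and -0.15 for CTU2.

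Of 23 other zinc transporter genes, 18 were compared. In clone 1, 2 were at least 2-fold higher and 0 lower, and in clone 2, 1 was higher and 0 lower, with medians of -0.09 and 0.07. The higher ones were SLC30A3, which loads zinc into vesicles, with 24.9 counts in clone 1 and 64.9 in clone 2, against 8.4 in control, and the zinc importer SLC39A8. In control, SLC30A3 was under 10 counts. It reached the floor only through the clones, so its large ratios follow in part from that filter. SLC39A8 had 362.0 counts in clone 1 and 341.8 in clone 2, against 174.4 in control, so clone 2 (log2 ratio 0.97) lay just under the limit that clone 1 (1.05) passed. The zinc exporter gene SLC30A1 had 75.5 counts in clone 1 and 92.3 in clone 2, against 145.5 in control. SLC39A10, the closest relative of SLC39A6 and chosen after its values were seen, had log2 ratios of -0.21 and -0.04.

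The flanking genes' relatives gave few large ratios. Of 12 genes of the RPRD family and of factors acting on the polymerase C-terminal domain, all 12 were compared, 0 were at least 2-fold off, and the medians were -0.05 and -0.11. The phosphatase genes CTDSP1 (log2 ratios -0.35 and -0.33) and SSU72 (-0.27 and -0.25) and the RPRD1A relative RPRD2 (-0.11 and -0.32) had the mean ratios farthest from 0 in that list. Of 13 formin genes, 11 were compared, 0 were at least 2-fold off, and the medians were -0.09 and -0.24; FHOD1, the closest relative of FHOD3, had 258.7 counts in clone 1 and 274.0 in clone 2, against 359.8 in control. The formin genes DIAPH2 (0.28 and 0.68) and FMNL3 (-0.16 and -0.39) stayed nearer to control than 2-fold.

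Of 17 genes of tubulin polyglutamylation, 12 were compared, with medians of 0.03 in clone 1 and 0.07 in clone 2. AGBL2, a carboxypeptidase gene whose product trims tubulin, was at least 2-fold lower in both clones, with 121.0 counts in clone 1 and 118.9 in clone 2, against 282.5 in control. The ligase genes TTLL6 (0.73 and 0.46) and TTLL11 (0.28 and 0.47) were above control by less than 2-fold. Among the 5 functional lists other than zinc transporters, AGBL2 was the single compared gene at least 2-fold off. At the shares over all compared genes, lists of this size would hold few or no such genes, so nothing particular to them is read from these counts.

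**Figure D4:**
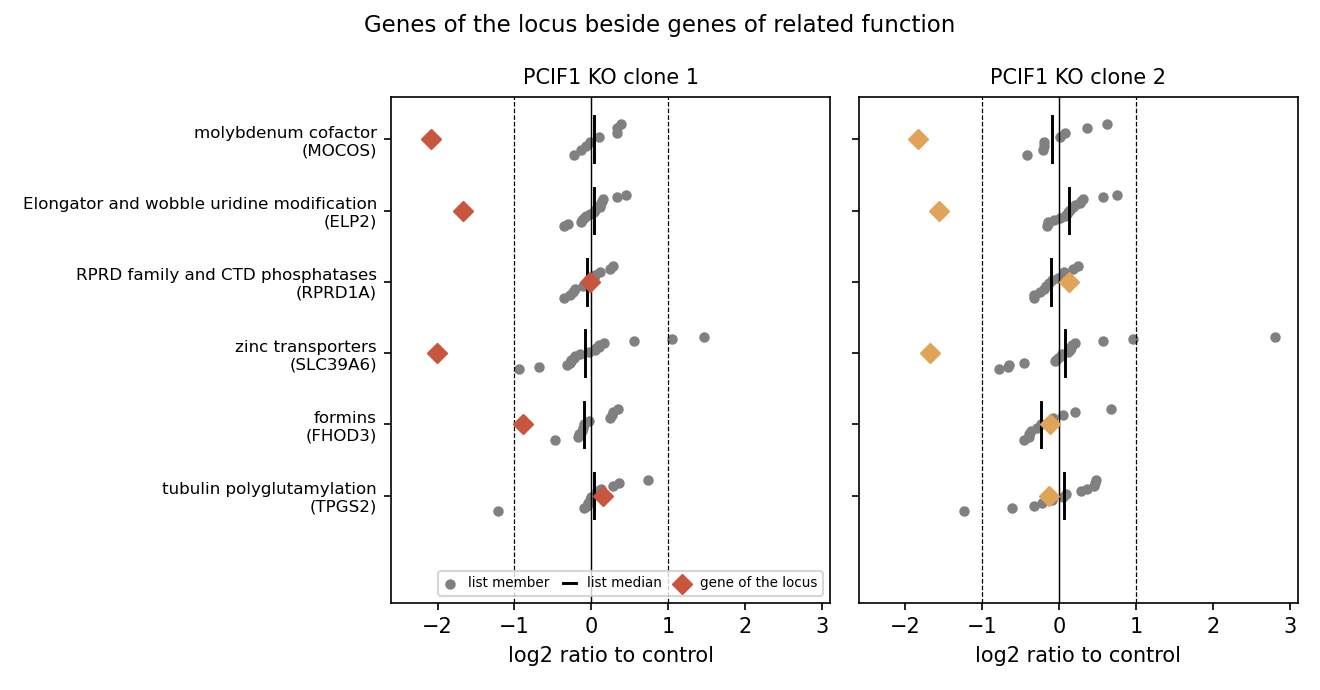
Log2 ratio to control in clone 1 and clone 2 for compared genes of 6 functional lists (grey points), each list's median (black line) and the gene of the locus it relates to (diamond); dashed lines mark 2-fold. The diamonds of MOCOS, ELP2 and SLC39A6 lie at or below -1.57, left of every point of their lists. These genes were selected for low ratios, so their place is no finding. The diamond of FHOD3 lies at -0.88 in clone 1, left of every formin, and at -0.12 in clone 2. The diamonds of RPRD1A and TPGS2 lie near 0.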

How the data were processed

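PRO-seq was applied to 9 libraries from MEL624 cells, 3 each for PCIF1 KO clone 1, PCIF1 KO clone 2 and control. Per the design text, each library used 1000000 cells with 40000 Drosophila S2 cells as spike-in, 42 nt paired reads and on average 50000000 mappable reads. Tools named by the submitters' processing notes are DESeq2, featureCounts, Bowtie 1.2.2 and cutadapt 1.14, and builds named there are GRCh38.p12, hg38 and dm3; their roles and order are unknown. The deposited values are a signal per kb: per the file headers, the mean of normalized counts over a group's replicates divided by gene length. Whether the spike-in set the scale, and whether strand was used, is not given in the sources used here; a shift shared by every gene could be hidden by such scaling. The header has 6 names and the rows 5 cells; the symbol cell was taken as missing, since the cell after the identifier equals or lies near the merged exon length of GENCODE 44 for the 6 genes (COSMOC differs, at 609 bases against 1004).

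Values were multiplied by length in kb. Symbols and positions are from GENCODE release 44, which matched 57754 identifiers and left 582 without a match. The pseudocount was 1, the floor a mean count of 10 and the limit 2-fold. The depth of each library is not given, so no counting interval is printed; values are rounded to 0.01 per kb. The 6 genes, the functional lists and the comparisons were chosen with earlier results of these data known. Genes named are the 6, those overlapping the interval with 1 count or more on average, the 5 compared genes next to it on each side, in each list those at least 2-fold off and the 3 with the largest mean ratio, the 5 nearest patterns, and PCIF1, beside others chosen after their values were seen (ELP4, ELP5, ELP6, SLC39A10, XDH, AOX1 and flanking genes 2-fold off). The calls and the search for runs were tested on simulated data. Python 3.11.15, numpy 2.4.6, pandas 2.3.3 and matplotlib 3.10.9 were used.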

Additional observations from a re-analysis of the deposited data

How the results depend on the processing

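The settings tried were pseudocounts of 0.5 and 5, no floor, a floor of 50, values per kb, median-of-ratios rescaling, quantile normalization and a limit of 1.5-fold. Runs of protein-coding genes only were added after the data were seen. The number of the 6 genes past the limit stayed within 1.5 times the main count in each, with SLC39A6 and FHOD3 under the floor of 50. MOCOS ranged from -2.09 to -2.02 in clone 1 and from -1.87 to -1.79 in clone 2, ELP2 from -1.67 to -1.62 and from -1.60 to -1.53, and SLC39A6 from -2.03 to -1.81 and from -1.70 to -1.54. The run had 3 genes in clone 1 and 3 in clone 2 with the floor of 50, and 3 and 3 with protein-coding genes only, because fewer genes were compared. The flank median of clone 2 was 0.11 with the floor of 50 and 0 per kb; the cause was not tested. At least 2-fold off among zinc transporters were 1 with the floor of 50 and 1 per kb, against 2. At 1.5-fold, 1 molybdenum cofactor, 1 Elongator, 5 zinc transporter, 1 formin and 3 tubulin genes were off. Over the whole table, 1435 genes in clone 1 and 1831 in clone 2 were lower with no floor, 51 and 80 with the floor of 50, 344 and 502 per kb, 847 and 1240 at 1.5-fold and, in clone 2, 212 with a pseudocount of 5, against 226 and 325. Of the genes off, 36.7% in clone 1 and 36.2% in clone 2 were lower, against 50.6% and 50.5% with no floor and 46.8% and 48.8% per kb. Leaving out a replicate was not run, since there is 1 mean per group. No paired analysis was possible because the columns carry group means and no replicate letter. The absence of replicates limits every value, and genes of few counts most.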

Other observations

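The deposited table is not in order of position. Its first 182 rows are all lower in both clones than in control. Of the 160 among them that were compared, 59 are at least 2-fold lower in both, against 101 of all 17149 compared genes (0.589%). The 6 genes of the MOCOS run, from SLC39A6 to ENSG00000267404, stand in rows 92 to 176, inside that block, whereas RPRD1A, FHOD3 and TPGS2 stand in rows 43509 to 48260. What set the order of the rows is not given in the sources used here, and it was not used in any comparison.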
